A study of Mus musculus with 6 samples.

Results

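The 46 genes described here drive or accompany cell division: cyclins, cyclin-dependent kinases and their inhibitor Cdkn1a, the DNA helicase and licensing factors of S phase, the enzymes that supply deoxynucleotides, and the kinases, checkpoint proteins and spindle proteins of mitosis. They were taken from a list of gene symbols, each represented by its brightest array probe. All 46 had a probe, and 38 passed the filter on dim signal, out of 20659 features tested in all. The samples were livers of male Apoe-deficient mice on the C57BL/6J background, animals that lack apolipoprotein E. Control animals (9 mice) ate a purified Western diet with 0.15% cholesterol and 20% palm oil, and treated animals (10 mice) ate that diet with 1% squalene, about 1 g per kg of mouse, for 11 weeks. Squalene is an open-chain intermediate of cholesterol synthesis. Both groups therefore share the Apoe deficiency, the cholesterol and the palm oil, and no group had functional Apoe or a plain diet. Liver RNA was combined into 4 pools per diet, each from 2 or 3 animals, and 1 pool of each diet was hybridised together on an array, which gave 4 pool pairs on 6 arrays.

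In most adult hepatocytes the cell cycle is at rest, and liver cells re-enter it after injury or loss of tissue. Cyclin D1 with Cdk4 releases E2F factors in G1, which switch on the genes of DNA synthesis. Cdt1 and Cdc6 load the Mcm2 to Mcm7 helicase at origins, and geminin (Gmnn) prevents a second loading. Cyclins A and B with Cdk1, the transcription factor Foxm1 and the DREAM complex then govern the genes of mitosis, through promoter elements such as the cell cycle genes homology region (CHR) and the CCAAT box. Liver also holds blood-derived and resident immune cells, which can divide. In RNA from whole tissue, fewer cells of a type and less RNA per cell cannot be told apart.

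Over the 4 pool pairs no cell cycle gene differed between the diets by the test, and the mean log2 ratios of squalene over Western lay between -0.23 (Cdkn1a) and 0.21 (Birc5). The pairs were not alike, however. In pair 1 all 38 measured genes were higher in the squalene pool, by a median log2 ratio of 0.30 and by up to 2.17-fold (Uhrf1), whereas in pairs 2, 3 and 4 the medians were -0.12, -0.09 and -0.11. Relative to the median of all features, these 4 medians kept their signs under every processing setting that changed the ratios per pair. Settings that changed only the fit or left out a pair could not move them. The authors' unnormalised ratios were also used, after centring on each array's median over spots that were not controls. With these centred ratios, the pair 3 median itself was 0.14, where all features stood at 0.38.

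Because the genes moved together in pair 1, the promoters of the 4 genes with the highest ratio in that pair and of the 2 with the lowest are shown, from 150 bases before to 30 after the start of transcription. The sequences are RefSeq's on GRCm38.p6, read 5′ to 3′ on the strand of the gene. Capitals mark a CCAAT box (CCAAT), a CHR (TTTGAA) or an E2F site (TTTCCCGC, TTTGGCGC, TTTCGCGC or TTTGCCGC), searched on both strands, with overlapping matches kept. Uhrf1 lies at chr17:56303187-56303366 (plus strand), Birc5 at chr11:117849087-117849266 (plus strand), Mcm5 at chr8:75109359-75109538 (plus strand) and Mki67 at chr7:135716350-135716529 (minus strand). Rrm2 lies at chr12:24708104-24708283 (plus strand) and Tk1 at chr11:117825985-117826164 (minus strand).
Uhrf1: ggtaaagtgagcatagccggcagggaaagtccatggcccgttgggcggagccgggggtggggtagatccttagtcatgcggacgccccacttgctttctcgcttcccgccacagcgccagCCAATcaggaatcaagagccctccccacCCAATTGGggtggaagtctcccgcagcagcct
Birc5: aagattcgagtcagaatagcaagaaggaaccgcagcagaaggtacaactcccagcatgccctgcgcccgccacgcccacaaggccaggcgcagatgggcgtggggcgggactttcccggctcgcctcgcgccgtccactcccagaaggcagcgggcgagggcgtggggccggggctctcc
Mcm5: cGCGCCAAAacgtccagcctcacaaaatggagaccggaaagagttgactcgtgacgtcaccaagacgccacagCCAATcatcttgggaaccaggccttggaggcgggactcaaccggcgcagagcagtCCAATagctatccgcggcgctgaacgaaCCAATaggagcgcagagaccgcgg
Mki67: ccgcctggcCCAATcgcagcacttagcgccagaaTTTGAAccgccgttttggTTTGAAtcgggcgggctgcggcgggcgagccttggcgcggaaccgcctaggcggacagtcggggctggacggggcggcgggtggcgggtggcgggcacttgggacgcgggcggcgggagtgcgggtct
Rrm2: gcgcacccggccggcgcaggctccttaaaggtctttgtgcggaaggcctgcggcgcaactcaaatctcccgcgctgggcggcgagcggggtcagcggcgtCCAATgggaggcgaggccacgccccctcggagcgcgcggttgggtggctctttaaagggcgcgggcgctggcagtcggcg
Tk1: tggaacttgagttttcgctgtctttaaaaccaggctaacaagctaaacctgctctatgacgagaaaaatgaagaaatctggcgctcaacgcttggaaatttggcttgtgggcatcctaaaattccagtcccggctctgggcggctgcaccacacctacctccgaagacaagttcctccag

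The printed Uhrf1 stretch holds 3 CCAAT matches, 2 of which overlap on opposite strands around the start. The Mcm5 stretch holds 3 CCAAT matches and 1 E2F match, and that of Mki67 holds 2 CHR matches and 1 CCAAT match. Rrm2 has 1 CCAAT match, and neither Birc5 nor Tk1 has any of these letters in the printed stretch. A promoter of 300 bases (250 before and 50 after the start) was in the RefSeq table for 35 of the 46 genes and for 27025 genes in all. A CHR was found in 14 of those 35 promoters (40%), against 18.1% of all promoters. A CCAAT box was found in 24 (68.6%, against 37.9%) and an E2F site in 8 (22.9%, against 2.32%). These matches are a description of the letters, and a promoter without them in this window says nothing about the factor.

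Each array compared the pools directly, so the value per pair is the log2 ratio of squalene over Western. Pairs 1 and 4 carried squalene in the red dye Cy5, and pairs 2 and 3 carried it in the green dye Cy3. Pairs 1 and 2 were hybridised on each of 2 slides, and their repeat arrays were averaged, so that n = 4 pairs. Per channel, the share of spots well above background ranged from 46.64% to 51.87%, and no spot was saturated. All 8 hepatocyte markers examined, among them Alb and Hnf4a, were well above background in every pool. Differences were tested with limma (a moderated linear model with a dye term) across all 20659 features with Benjamini-Hochberg adjustment, and the number of pairs limits the precision. An offset of 50 intensity units, added in the background correction, shrinks the ratios of dim probes towards 0.

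Of the 38 measured genes, 0 passed an adjusted p of 0.05, where 0% of all features did, and the smallest adjusted p of any feature was 0.158. At an unadjusted p below 0.05, 0 of the 38 were called, against 2.47% of all features (511). The mean ratio was above 0 for 20 of the genes and below 0 for 18, with a median of 0.0085 against 0.0029 over all features. None of the 38 had the same sign in all 4 pairs, whereas 3.33% of all features were above 0 and 3.05% below 0 in every pair. The median SD over pairs was 0.28 for these genes and 0.16 over all features. Between repeat arrays of the same pools, the SD for these genes was 0.09 in both pairs that had them.

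**Figure D1:**
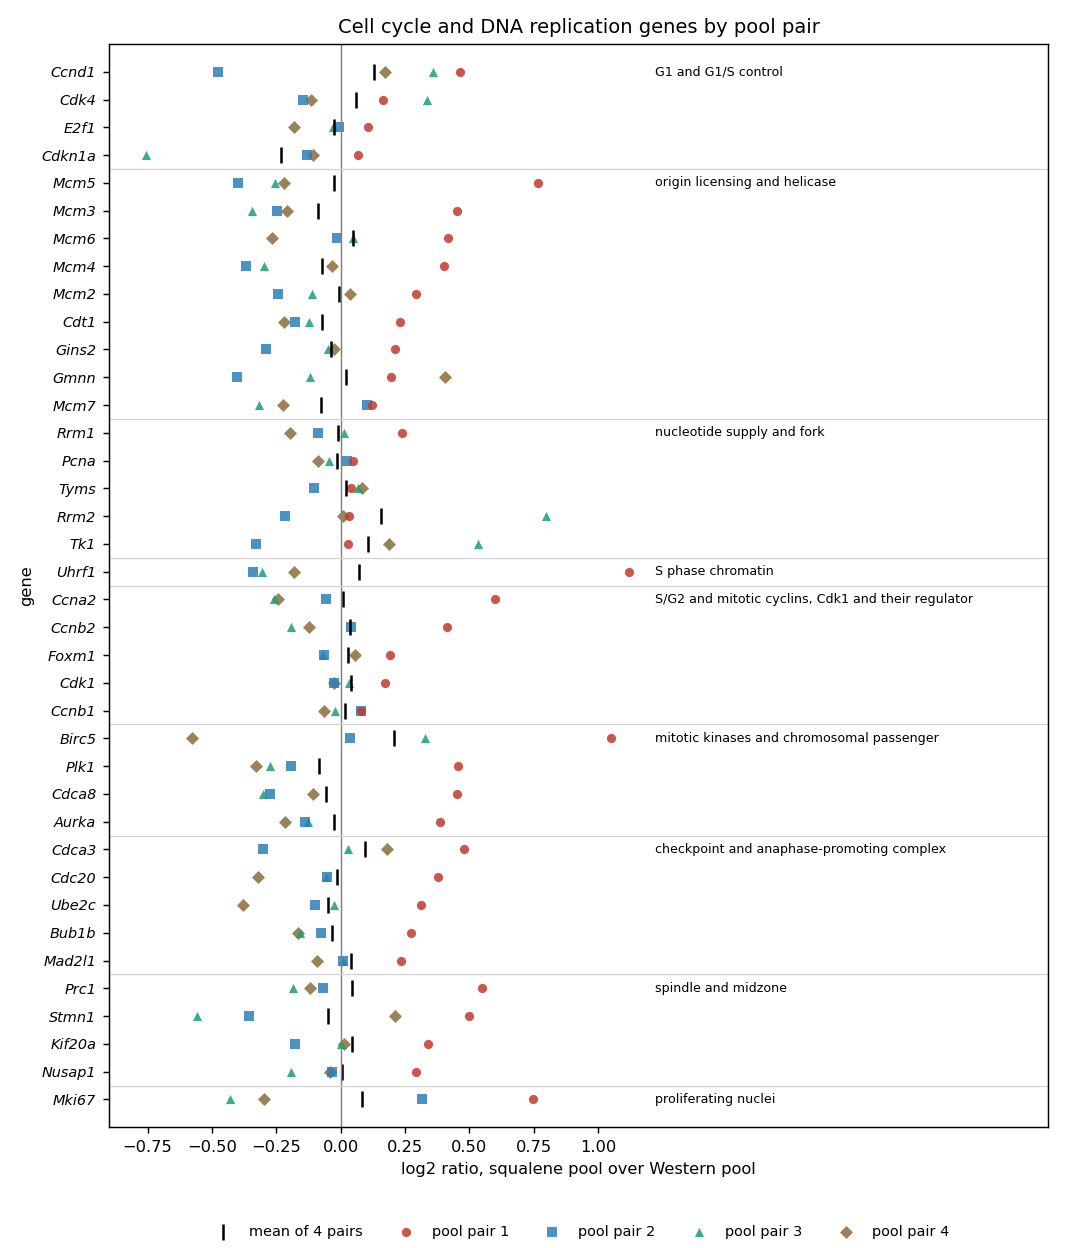
Log2 ratio of squalene over Western (horizontal axis, after loess) for each of the 38 measured cell cycle genes in pool pairs 1 to 4, with the mean of the 4 pairs as a black bar and genes grouped by role. Pair 1 lies to the right of 0 for all 38 genes, up to 1.12 for Uhrf1, while the means lie between -0.23 and 0.21.

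All 38 genes were above 0 in pair 1, compared with 52.7% of all features, and 22 of them exceeded a log2 ratio of 0.25, a 1.19-fold difference, compared with 8.85%. Pair 1 was the highest of the 4 pairs for 33 of the 38, compared with 22.6% of all features. In pair 2, 31 of the genes were below 0 (51.8% of all features), in pair 3, 26 were (52.2%), and in pair 4, 28 were (48.7%). Below 0 in each of pairs 2, 3 and 4 were 17 of the 38, against 9.49% of all features, and 0 were above 0 in each of them, against 8.24%. The pair 1 values recurred on its 2 slides. On slide 1 all 38 genes were above 0, with a median of 0.31, and on slide 2 they were above 0 for 36, with a median of 0.30. The repeat is technical, since both arrays held the same 2 pools, so the difference of pair 1 rests on 1 pool of each diet.

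**Figure D2:**
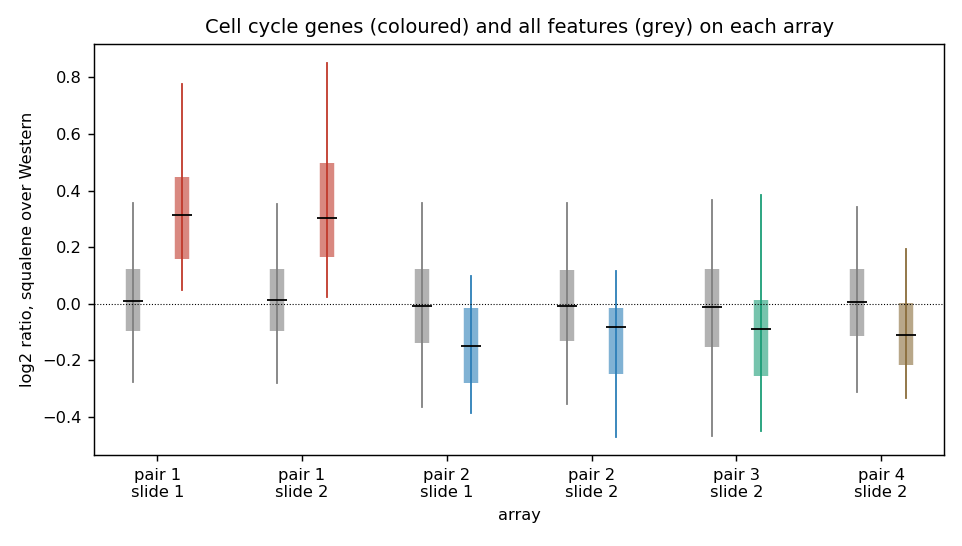
Distribution of log2 ratios of squalene over Western on each of the 6 arrays for all features (grey) and for the 38 measured cell cycle genes (coloured), after loess; black marks are medians, boxes run from the 25th to the 75th percentile and lines from the 5th to the 95th. The cell cycle genes have medians of 0.31 and 0.30 on the 2 arrays of pair 1 and medians below 0 on the 4 other arrays.

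Channel intensities were also read for each pool, among pools of the same dye. These pools lay on different arrays, so differences between arrays that cancel in a ratio may remain in the levels. Pair 1 was on slides 1 and 2, and pair 4 on slide 2 alone. The part of the array in these levels was not tested. Among the 4 pools labelled with Cy5, the squalene pool of pair 1 had the highest level for 33 of the 38 genes and lay above the median of the 4 pools by a median of 0.28 on the log2 scale. The squalene pool of pair 4 had the lowest level for 29 of the 38, with a median deviation of -0.25. The Western pools of pairs 2 and 3, in the same dye, deviated by 0.01 and -0.01. The highest and the lowest Cy5 pool for these genes were thus both squalene pools. The median level of all features lay between 8.47 and 8.49 in the 4 Cy5 pools. How often any feature was highest or lowest in a pool was not counted, so the counts of genes here are a description only. Among the 4 pools labelled with Cy3, the median deviations were 0.06 and -0.03 for the Western pools of pairs 1 and 4, and -0.02 and 0.02 for the squalene pools of pairs 2 and 3. The Western pool of pair 1 was the highest of these for 21 of the 38 genes and the lowest for 5, Tyms, Tk1, Aurka, Birc5 and Mad2l1. For most of the genes, then, the Western pool of pair 1 was not the lowest of its dye. In Birc5 that pool deviated by -0.26, so its ratio in pair 1 came with both a high squalene and a low Western level.

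**Figure D3:**
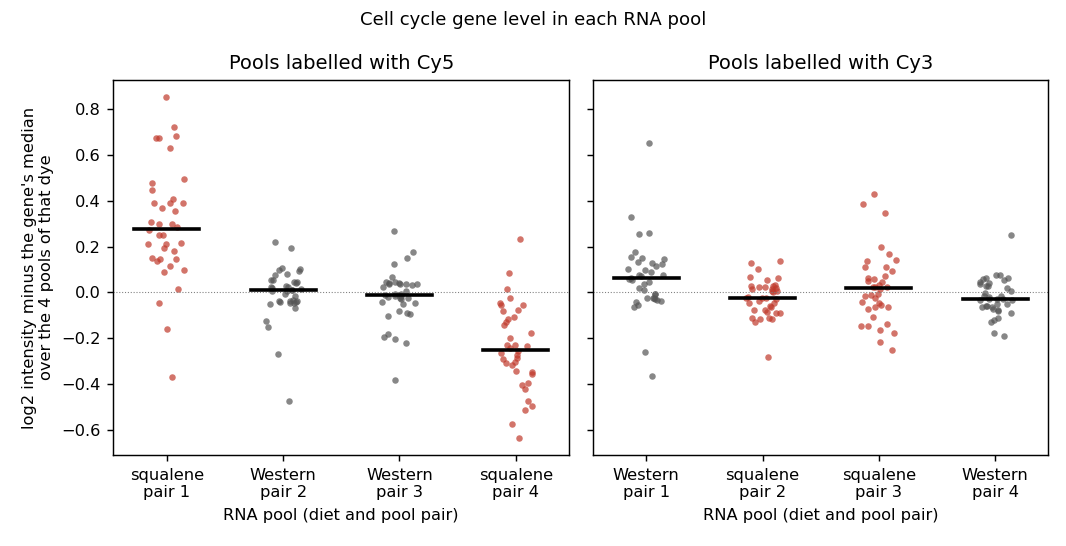
Log2 intensity of each of the 38 measured cell cycle genes in each RNA pool, minus the gene's median over the 4 pools in the same dye (left Cy5, right Cy3); red points are squalene pools, grey points Western pools, and black bars are medians. The squalene pool of pair 1 sits at a median of 0.28 and the squalene pool of pair 4 at -0.25, while the other 6 pools have medians between -0.03 and 0.06.

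The genes of G1 and the G1/S transition differed between pairs without a shared order. Ccnd1, cyclin D1, which couples growth signals to entry into the cycle, had log2 ratios of 0.47, -0.48, 0.36 and 0.17 in pairs 1 to 4. It was higher with squalene in 3 pairs and lower in pair 2, with a mean of 0.13 (SE 0.15, SD 0.42, n = 4). Cdk4, the kinase partner of cyclin D1, had a mean of 0.06 ± 0.23 (SD, n = 4), with its highest ratio, 0.33, in pair 3. E2f1, a transcription factor held back by Rb1, had a mean of -0.03 ± 0.12 (SD, n = 4). Cdkn1a, the p21 inhibitor of cyclin-dependent kinases and a target of p53, had log2 ratios of 0.07, -0.13, -0.76 and -0.11. Its mean was -0.23 (SE 0.11, SD 0.36, n = 4), the lowest of the 38, and it was lower with squalene in 3 pairs. Its unadjusted p of 0.099 was the smallest among the 38, and its adjusted p was 1 (limma).

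Of the 9 measured licensing and helicase genes, all were above 0 in pair 1, and the median ratios over pairs 1 to 4 were 0.29, -0.25, -0.12 and -0.21. Mcm5, a subunit of the ring helicase that unwinds DNA, had log2 ratios of 0.77, -0.40, -0.26 and -0.22, with a mean of -0.03 (SE 0.17, SD 0.54, n = 4). Its log2 intensity in the Cy5 pools was 8.14 in the squalene pool of pair 1, 7.71 and 7.78 in the Western pools of pairs 2 and 3, and 7.27 in the squalene pool of pair 4. Mcm3, another subunit, had ratios of 0.45, -0.25, -0.35 and -0.21, with a mean of -0.09 (SE 0.12, SD 0.36, n = 4). Both had 1 pair above 0 and 3 pairs below. The other helicase subunits had pair 1 ratios of 0.42 for Mcm6, 0.40 for Mcm4, 0.29 for Mcm2 and 0.12 for Mcm7, with means between -0.08 and 0.05. Cdt1, the loading factor, had 0.23 in pair 1 and -0.18, -0.12 and -0.22 in the others. Its inhibitor geminin (Gmnn) had 0.20, -0.40, -0.12 and 0.40 in pairs 1 to 4. Gmnn was thus higher with squalene in both pairs with squalene in Cy5 and lower in both with squalene in Cy3. Dye and pool pair cannot be told apart in that pattern. Gins2, a subunit of the active helicase, had a mean of -0.04 ± 0.20 (SD, n = 4).

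The enzymes of nucleotide supply and the fork had the smallest pair 1 median of the role groups, 0.04. Rrm2, the regulated subunit of ribonucleotide reductase, had log2 ratios of 0.03, -0.21, 0.80 and 0.01, a mean of 0.16 (SE 0.17, SD 0.44, n = 4) that rested on pair 3. Tk1, thymidine kinase of the salvage pathway, had 0.03, -0.33, 0.53 and 0.19, with a mean of 0.11 (SE 0.15, SD 0.36, n = 4). Both were highest in pair 3 and lowest in pair 2, while most of the other genes were highest in pair 1. Rrm1, the constant subunit of the reductase, had 0.24 in pair 1 and a mean of -0.01 ± 0.18 (SD, n = 4). Pcna, the sliding clamp of the replication fork, had ratios of 0.05, 0.03, -0.05 and -0.09, a narrow spread for this list (SD 0.06). Tyms, thymidylate synthase, had a mean of 0.02 ± 0.09 (SD, n = 4).

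Uhrf1, which reads hemimethylated DNA and brings Dnmt1 to newly copied strands, varied most between pairs. Its log2 ratios were 1.12, -0.34, -0.31 and -0.18, with a mean of 0.07 (SE 0.21, SD 0.70, n = 4). In the Cy5 pools its log2 intensity was 7.89 in the squalene pool of pair 1, 7.16 and 7.17 in the Western pools of pairs 2 and 3, and 6.53 in the squalene pool of pair 4. In the Cy3 pools it lay between 6.71 and 6.87. A second Uhrf1 probe, not above background in any pool, read 0.04 in pair 1.

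Cyclins and kinases of S and G2 phase were higher in the squalene pool of pair 1 for all 5 genes measured, with a median of 0.19. Ccna2, cyclin A2, which acts in S phase and G2, had 0.60 in pair 1 and -0.06, -0.26 and -0.24 in the others. Ccnb2, a B-type cyclin of mitosis, had 0.41, and Ccnb1, its relative, 0.08. Cdk1, the mitotic kinase, had log2 ratios of 0.17, -0.03, 0.03 and -0.02, with a mean of 0.04 (SE 0.06, SD 0.09, n = 4). Foxm1, which drives transcription of mitotic genes, had a mean of 0.03 ± 0.12 (SD, n = 4). Like Gmnn, it was above 0 in pairs 1 and 4 and below 0 in pairs 2 and 3. Ccnb1, Cdk1 and Foxm1 had mean log2 intensities among the lowest of the measured genes.

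Mitotic kinases and chromosomal passenger proteins had the highest median of the role groups with more than 1 measured gene in pair 1, 0.46, and the lowest in pair 4, -0.27. Birc5, survivin, the passenger protein that also restrains cell death, had log2 ratios of 1.05, 0.03, 0.33 and -0.58. Its mean of 0.21 (SE 0.27, SD 0.67, n = 4) was the highest of the 38, with 3 pairs above 0 and pair 4 below. A dimmer Birc5 probe, well above background in every pool, had 0.48, -0.12, 0.05 and 0.08, with the opposite sign in pairs 2 and 4, so the value of pair 4 depends on the probe. The brightest Birc5 probe had a log2 intensity in Cy5 of 9.40 in the squalene pool of pair 1 and 7.97 in that of pair 4. The Western pools of pairs 2 and 3 had 8.64 and 8.45 in that dye. In Cy3 the same probe had 8.35 and 8.55 in the Western pools of pairs 1 and 4. It had 8.67 and 8.78 in the squalene pools of pairs 2 and 3. Plk1, a kinase of mitotic entry and exit, had 0.46 in pair 1 and -0.19, -0.27 and -0.33 in the others. Cdca8, borealin, had 0.45, -0.27, -0.30 and -0.11, and Aurka, the centrosome kinase, 0.39, -0.14, -0.13 and -0.21. By these probes all 3 were above 0 in pair 1 and below 0 in every other pair. A dimmer Cdca8 probe, well above background in every pool, had 0.21, 0.02, -0.19 and 0.18, above 0 also in pairs 2 and 4.

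The 5 measured genes of the checkpoint and the anaphase-promoting complex lay between 0.23 and 0.48 in pair 1. Cdca3, a trigger of mitotic entry, had log2 ratios of 0.48, -0.30, 0.03 and 0.18, with a mean of 0.10 (SE 0.09, SD 0.33, n = 4). Cdc20, an activator of the anaphase-promoting complex, had 0.38 in pair 1 and -0.32 in pair 4. Ube2c, a ubiquitin-conjugating enzyme of that complex, had 0.31 and -0.38 in the same pairs. A slightly dimmer Ube2c probe, well above background in every pool, had 0.72 and -0.28 there. The checkpoint genes Bub1b and Mad2l1 had means of -0.03 ± 0.21 and 0.04 ± 0.14 (SD, n = 4). Bub1b was dim, well above background in all 4 Western pools but only in the squalene pools of pairs 1 and 2.

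Among spindle genes, Stmn1, the microtubule-destabilising stathmin, had log2 ratios of 0.50, -0.35, -0.56 and 0.21, with a mean of -0.05 (SE 0.08, SD 0.49, n = 4). It was higher with squalene in both pairs with squalene in Cy5 and lower in both with squalene in Cy3, and the dye term of the model took up that pattern, in which dye and pool pair cannot be told apart. Prc1, which bundles microtubules of the midzone, had 0.55 in pair 1 and -0.07, -0.18 and -0.12 in the others. Kif20a, a kinesin of cytokinesis, had 0.34 and Nusap1, a spindle-associated protein, 0.29 in pair 1, with means of 0.04 and 0.01. Nusap1 was dim, well above background in 2 squalene and 3 Western pools, and not in the Western pool of pair 1. Mki67, the Ki-67 antigen of dividing nuclei, had log2 ratios of 0.75, 0.32, -0.43 and -0.30, with a mean of 0.08 (SE 0.21, SD 0.55, n = 4). It was higher with squalene in pairs 1 and 2 and lower in pairs 3 and 4. In the Cy5 pools its log2 intensity was 8.25 in the squalene pool of pair 1, 7.30 and 7.83 in the Western pools of pairs 2 and 3, and 7.22 in the squalene pool of pair 4.

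The other 8 genes were too dim to be tested. Ccne2, Cdc6, Hells, Aurkb and Bub1 were not well above background in any pool. Kif11, the spindle kinesin Eg5, was above background in the squalene pool of pair 1 alone. Top2a, topoisomerase II alpha, was above it in the squalene pool of pair 1 and the Western pool of pair 3, and Tpx2, a spindle assembly factor, in the squalene pools of pairs 1 and 2 and the Western pools of pairs 3 and 4. The filter asked for signal in at least 3 of 4 pairs in either diet, so the 38 measured genes are not the whole list. For 7 genes further probes passed the filter, and all 8 such probes were above 0 in pair 1, where 52.9% of all probes that passed were. Over the 4 pairs, 6 of their 32 values had the opposite sign to the probe used, in Birc5 and Cdca8 (pairs 2 and 4), Ube2c (pair 3) and 1 of the Cdk4 probes (pair 4).

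The medians changed when single pairs were left out. The dye term stayed in each fit, so the only pair left in its dye orientation was fitted exactly. That pair weighed as much as the other 2 together and added nothing to the residual spread. Without pair 2 it was pair 3, where Rrm2 had 0.80, against 0.03 and 0.01 in pairs 1 and 4. The fitted ratio of Rrm2 was then 0.41. Passing the unadjusted threshold here thus does not mean that the 3 remaining pairs were alike. Without pair 1, the median ratio of the 38 genes was -0.12, with 17 genes below 0 in all 3 remaining pairs. Mcm3, Mcm5, Uhrf1 and Plk1 then had an unadjusted p below 0.05, as did 2.69% of all features, and none passed an adjusted p of 0.05. Without pair 2 the median was 0.00097, and Ccnd1, Cdkn1a, Rrm2 and Tk1 passed the unadjusted threshold, where 6.31% of all features did. Without pair 4 the median was 0.09, and Uhrf1 and Birc5 passed it (1.76% of all features). Leaving out pair 3 gave a median of -0.02 and no gene at the unadjusted threshold, where 4.22% of all features were. No adjusted p of these genes fell below 0.534 in any of the 4 fits.

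Other genes of the same pathways were read from 4 lists with 130 genes, of which 106 were measured. Their mean ratio was above 0 for 60 and below 0 for 46. None had an unadjusted p below 0.05, where 2.47% of all features did. In every pair, 4 were above 0 and 2 below, close to the shares of all features (3.33% and 3.05%), and the 6 are named as a description only. Among 35 other cyclins, kinases and inhibitors these were Ccng1, a p53 target (mean 0.07), E2f4, a repressive E2F factor of quiescent cells (0.07), and Rb1, the retinoblastoma protein (-0.07). Among 34 other replication genes they were Rfc5 of the clamp loader (-0.09) and Rpa2 of the single-strand binding complex (0.05), and among 21 other mitotic genes Kif20b, a kinesin (0.12). In pair 1 the other mitotic genes had a median of 0.31, with 19 of 21 above 0, while the other replication genes had 0.07, the cyclins, kinases and inhibitors 0.13, and 16 genes of p53 and DNA damage 0.04. Those lists had medians in pair 4 of -0.09, -0.07, 0.03 and 0.06.

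**Figure D4:**
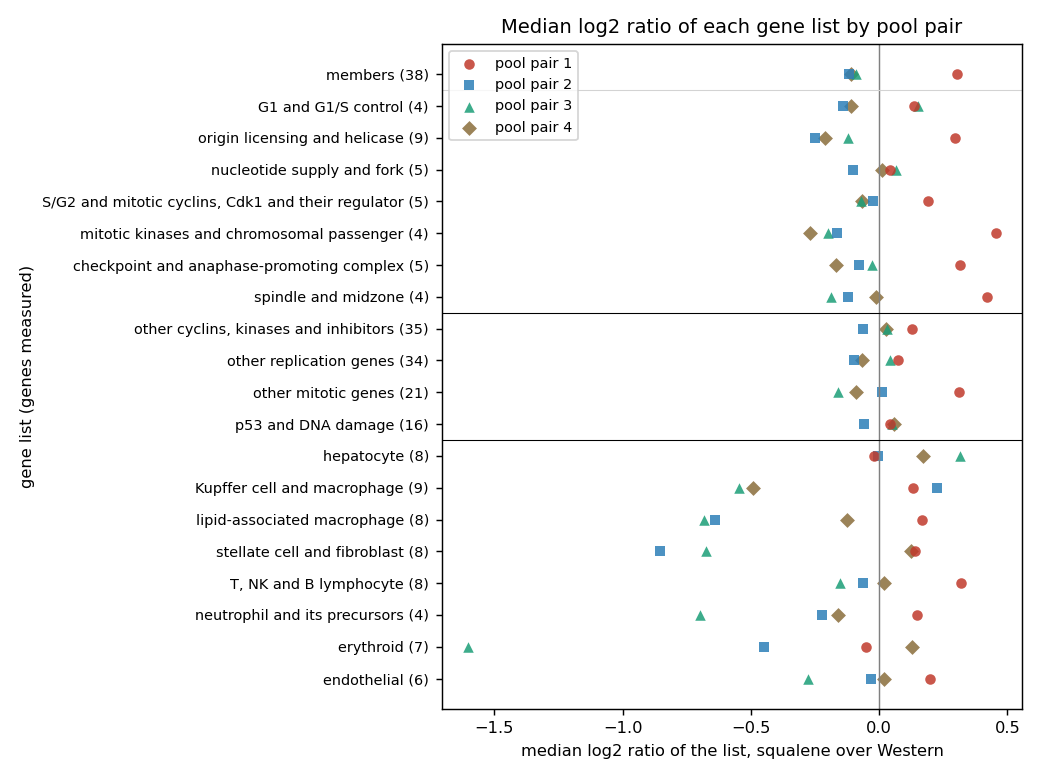
Median log2 ratio of squalene over Western (horizontal axis, after loess) in each pool pair for the 38 measured cell cycle genes, their role groups with at least 4 measured genes, 4 lists of other cell cycle genes and 8 lists of cell type markers, with the number of genes measured in brackets. In pair 1 the mitotic kinase, checkpoint and spindle groups and the other mitotic genes lie at 0.31 or above, and the lymphocyte markers at 0.32.

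Markers of other liver cells also differed between pairs. In pair 1 the median ratio was 0.32 for 8 lymphocyte markers, 7 of them above 0, with the B cell genes Cd79b at 1.11 and Ms4a1 at 0.95 and the lymphocyte granzyme Gzma at 0.77. The T and NK cell genes were lower, with Cd3g at 0.20, Nkg7 at 0.15, Cd3e at 0.11 and Cd4 at -0.10. The median was 0.13 for 9 Kupffer cell and macrophage markers, 7 of them above 0, from Adgre1 at 1.05 and Marco at 0.95 down to Vsig4 at -0.52 and Clec4f at -0.54. The endothelial median in pair 1 was 0.20, that of lipid-associated macrophages 0.17, that of neutrophils 0.15, that of stellate cells 0.14, that of erythroid genes -0.05 and that of hepatocytes -0.02. In pair 3, by contrast, the medians were -1.60 for erythroid genes, -0.70 for neutrophil, -0.68 for lipid-associated macrophage, -0.67 for stellate, -0.54 for Kupffer, -0.28 for endothelial and -0.15 for lymphocyte markers, and 0.32 for hepatocyte markers. Hepatocyte markers were split in pair 3, with 5 above 0, up to 1.16 (Tat). The 3 below 0 were Alb at -0.55, Ttr at -0.41 and Apob at -0.18. The erythroid value came from 4 globin genes, between -1.60 and -1.91, while Klf1 had 0.48, Alas2 0.25 and Epor -0.01. Among the 4 neutrophil genes S100a8 and S100a9 had -1.25 and -1.26, and Elane and Camp -0.10 and -0.15. Pairs 2 and 4 had lymphocyte medians of -0.06 and 0.02, Kupffer medians of 0.23 and -0.49 and stellate medians of -0.86 and 0.12. Their part in the ratios of the cell cycle genes was not tested.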

How the data were processed

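Hybridisation to 2-colour Agilent mouse arrays compared squalene with Western diet liver RNA in 4 pool pairs. The deposited scanner files gave red and green spot and background intensity and, beside it, processed intensity, log10 ratios of Cy5 over Cy3 and flags. Per the file headers they were extracted with Agilent's software, release 10.7.3.1. A further deposited file had 1 score per spot and array, without a stated unit. Set beside the scanner values, 99.93% to 99.94% of these matched, within 0.001, the log10 of squalene over Western from median signals that had not been normalised, so scale, centring and direction were settled. Its array medians were 0.254 and 0.270 in pair 1, -0.217 and -0.257 in pair 2, -0.270 in pair 3 and 0.259 in pair 4. In each pair 1 column, 2 oversized cells were left out. As a setting, its values were put on the log2 scale and centred on each array's median over spots that were not controls.

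In R (4.3.3), with the packages data.table (1.17.8) and limma (3.58.1), median signals (the plan had named mean signals) were corrected by normexp (offset 50) and loess, with controls at weight 0 and outlier spots left out. Repeat spots, then repeat arrays, were averaged. A probe had to be well above background in 3 of 4 pairs in the channel of 1 diet (26854 of 55681 probes). Symbols came from RefSeq accessions (GRCm38.p6) for 26762 probes, and the brightest probe stood for a gene. limma's model held a dye intercept (2 residual, 3.039 prior degrees of freedom). Levels per pool were log2 intensities after loess and Aquantile, read only within a dye. The fit was tested on simulated data.

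The cell cycle genes and lists were chosen with earlier results of these data known. Values per pair were given for the 8 genes with the largest mean ratio in size, the 6 with the largest SD, Ccnd1, Cdkn1a, Mki67, Top2a (too dim), Pcna and Cdk1, and genes with 1 sign in all pairs. Other values were chosen after they were seen. Which animals formed a pool was not stated in the labels. P-values and SE measure the spread between pool pairs of the same dye orientation, moderated by limma across features. A difference between the orientations is taken up by the dye term, while the SD over pairs includes it. Stmn1, for example, had an SD of 0.49 and an SE of 0.08.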

Additional observations from a re-analysis of the deposited data

Results flagged for a closer look

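Pair 1 stood far above the other 3 pairs, by a gap that exceeded Dixon's 95% critical value for 4 samples, for 5 of the 38 cell cycle genes. These were Uhrf1, at a log2 ratio of 1.12, Mcm5 at 0.77, Prc1 at 0.55, Mcm3 at 0.45 and Aurka at 0.39. The median over the 38 genes stood apart in the same pair, at 0.30. Chance gives such a gap in about 1 in 20 groups, and 4.73% of all features had one in some pair, against 13.2% of these genes. Genes that move together are not independent.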

How the results depend on the processing

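No cell cycle gene passed an adjusted p of 0.05 under any setting run. Over all features the count was 0, but 2 with median centring in place of loess, 8 with the deposited table and 12 with all 6 arrays and duplicateCorrelation. At an unadjusted p below 0.05 it was 511, but 201 with median centring, 183 with the deposited table, 936 without the filter, 254 without the dye term and 6 with eBayes trend and robust, and it ran from 363 to 1303 when single pairs were left out. For the cell cycle genes it was 0, but 1 (Cdkn1a) with duplicateCorrelation, and 0 to 4 when single pairs were left out, while the genes with 1 sign numbered 0 to 17.

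The median ratio in pair 1 was 0.30, against 0.34 without background correction, 0.48 with the scanner's processed signals, 0.58 with median centring, 0.26 with the deposited table, 0.28 without the filter, 0.33 with signal required in both channels, 0.31 with the mean over probes and 0.31 on the slide 1 array alone, the last chosen after seeing the data. Median centring and the deposited table moved the median of all features in pair 1 to 0.32 and -0.09. Relative to it the genes stood at 0.26 and 0.35, with 38 and 31 of 38 above 0 before that correction. Of 568 single-gene values under the alternatives, 2 moved by more than 1 SD (Cdk1 and Bub1b with processed signals). With the fits that left out a pair included, 36 of 38 mean ratios changed sign under at least 1 setting. Most of these changes came from leaving out a pair, with 9 to 18 genes in each such fit. Each setting that kept all pairs changed the sign of 0 to 5. Each pair holds 1 pool of each diet, so the pairs are paired by design and an unpaired fit was not run. Signal over background left 8 of 46 genes untested.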
